A study of Mus musculus with 8 samples.

Results

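A set of 10 genes that mark or maintain blood stem cells and multipotent progenitors were followed in marrow cells of wild-type and Trerf1 knockout mice: Cd34, Procr, Meis1, Hoxa9, Hoxa7, Hlf, Mecom, Erg, Lmo2 and Mycn. They were taken by name, by a rule that sets no threshold on their values, and make up 10 of the 53647 genes in the count files. All 10 were among the 16352 genes that passed the filter on low counts. The cells were sorted from bone marrow as Lin- CD127+, meaning that cells with surface markers of mature lineages were depleted and cells carrying the interleukin 7 receptor alpha chain were kept. There were 4 libraries of genotype Trerf1 +/+ (WT1 to WT4) and 4 whose genotype the labels spell Tref1 -/- (KO1 to KO4). No treatment is given, and strain, age, sex, the part of the gene removed and whether a library came from 1 animal or a pool are not given in the sources used here. A p-value therefore speaks only to the spread from library to library, which may be technical.

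Stem cells sit at the top of blood formation and give rise to multipotent progenitors, from which the lymphoid progenitors that carry CD127 arise. Cd34, Meis1 and Hoxa9 are used both by stem cells and by progenitors that have begun to choose a lineage. Procr, Mecom and Hlf are known chiefly from the stem cell itself and are shut down early as cells mature. The part of a bulk RNA level that comes from fewer cells and the part that comes from less RNA per cell cannot be told apart.

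Some facts about the libraries bear on every value below. Library totals ran from 31109744 to 73414626 counts, with WT2, WT4 and KO4 the 3 deeper ones. Trerf1, the targeted gene (ENSMUSG00000064043.16), was at 22.3 to 32.1 CPM (counts scaled to library size with TMM factors) in wild type, at 12.1 to 13.4 CPM in KO1 to KO3 and at 22.1 CPM in the library labelled KO4, just under the lowest wild-type library. In edgeR it gave a log2 fold change of -0.87 ± 0.20 (adjusted p 0.999). A two-sided exact permutation test of log2 CPM gave p = 0.0286, the smallest that 70 assignments of 8 libraries allow. The groups were apart only in CPM: in RSEM TPM, which corrects for transcript length, KO4 was at 6.54. That lay inside the wild-type range of 5.31 to 8.27 TPM. Without KO4 the Trerf1 estimate was -1.11. In what follows KO4 stands for the library so labelled. Xist, which female cells transcribe from an X chromosome, was detected in WT1, WT4, KO1, KO3 and KO4 and not in WT2, WT3 and KO2. Genes of the gate were present throughout: all 12 early lymphoid genes listed for it passed the filter, with a summed level of 7128 to 8721 CPM in wild type and 7292 to 10920 CPM in knockout. The largest part of this sum was Ly6d, at 2856 to 4197 CPM in wild type. Single genes could vary more than the sum. Wild-type libraries differed 2.77-fold in Dntt, 2.75-fold in Rag1 and 2.65-fold in Rag2, each lowest in WT4, but 1.11-fold in Ikzf1. Markers of other cells were also represented. The 9 dendritic and plasmacytoid dendritic cell markers summed to 4039 to 6769 CPM in wild type and 4620 to 5600 CPM in knockout. They include Flt3, which is also in the gate's list, and Siglech, which was highest in WT4 at 2413 CPM. The 9 granulocyte and monocyte progenitor markers summed to 3357 to 5039 CPM in wild type and 3451 to 4289 CPM in knockout, most of it from Irf8. The 8 basophil and mast cell markers summed to 50.9 to 307.9 CPM in wild type and 48.9 to 370.7 CPM in knockout, highest in WT4 and KO4, with Tpsab1 at 0 in every library. All 11 erythroid markers passed the filter, with 10 estimates below 0, whereas 51.7% of all genes tested had estimates above 0. In edgeR no erythroid marker had an unadjusted p under 0.05 (smallest 0.0973, Alas2). Without Tfrc, the only marker of them with an estimate above 0, the sum ran from 33.1 CPM (WT4) to 501.9 CPM (WT1) in wild type. In knockout that sum ran from 27.9 CPM (KO3) to 214.8 CPM (KO1).

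Per transcript length the 10 genes spanned a wide range, from Cd34 at the top to Procr at the bottom. Levels are compared between genes as TPM, the RSEM measure of transcript abundance that corrects for length. Cd34, the sialomucin of progenitor cell surfaces, stood at 184.8 ± 32.4 TPM in wild type and 187.3 ± 20.1 TPM in knockout (SD, n = 4 each), above 94.2% of the genes tested. Hoxa9 followed at 59.4 ± 2.7 and 70.6 ± 3.28 TPM, Hoxa7 at 53.1 ± 4.08 and 57.3 ± 6.88 TPM, and Meis1 at 46.6 ± 6.11 and 48.9 ± 4.65 TPM. These 3 transcription factors lay between the 77.1 and 81.1 percentiles of tested genes in wild type, and neighbours among them overlapped between wild-type libraries. Mycn was at 18.6 ± 6.23 TPM, Lmo2 at 17.95 ± 3.96 TPM and Erg at 11.9 ± 6.39 TPM in wild type, again with overlapping libraries from one neighbour to the next. The 3 genes best known from the stem cell itself came last. Hlf was at 3.81 ± 1.39 TPM, Mecom at 1.58 ± 0.56 TPM and Procr at 0.74 ± 0.25 TPM in wild type, the last above 14.7% of tested genes. Mecom and Procr overlapped each other, whereas gaps with no overlap lay between Cd34 and Hoxa9, between Meis1 and Mycn, between Erg and Hlf and between Hlf and Mecom.

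**Figure D1:**
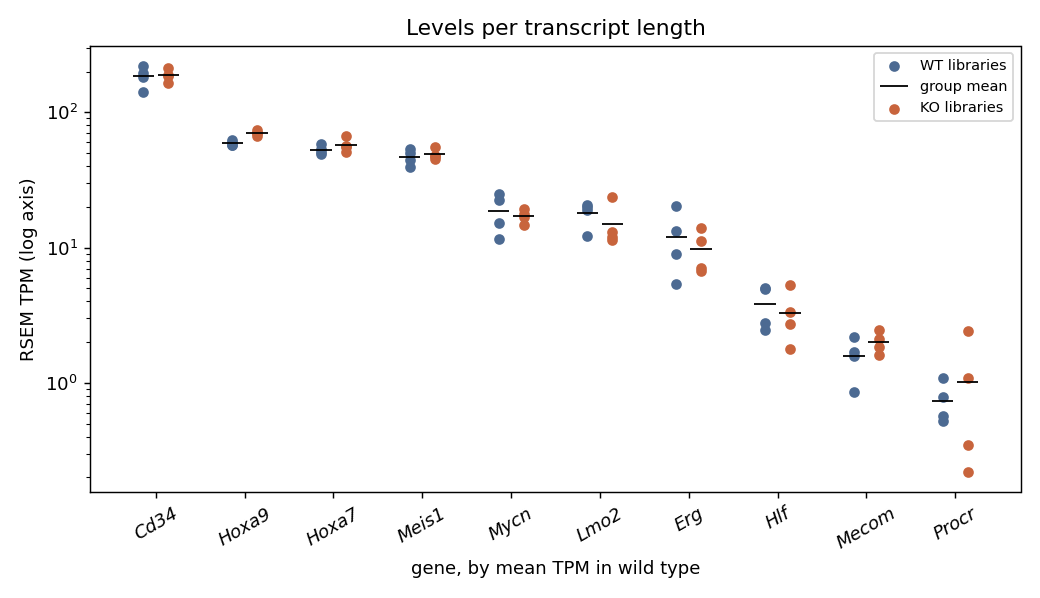
Level of each gene per transcript length, as RSEM TPM on a log axis, with a point for each wild-type (blue) and knockout (orange) library and a line at each group mean. Cd34 lies highest at a wild-type mean of 184.8 TPM and Procr lowest at 0.74 TPM.

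Levels of other markers ranged widely per transcript length. Of 21 further surface and other markers of stem cells and multipotent progenitors, 18 passed the filter, while Tek, Fgd5 and Cdkn1c did not. Slamf1, which encodes the stem cell marker CD150, was listed at 0 to 0.41 TPM over the 8 libraries. Flt3, the receptor of multipotent and lymphoid progenitors, was at 306.8 to 459.6 TPM. Others of this list were also well detected. In wild type Ly6a averaged 175.6 TPM, Eng 32.4 TPM, Kit 31.3 TPM and Angpt1 17.0 TPM. Among listed stem cell factors and partners, Hoxb5 had at most 2 counts in any library, and no counts were listed for Tcf15. In the same list Lyl1 averaged 174.1 TPM and Msi2 29.85 TPM in wild type.

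No gene of the set passed the test of knockout against wild type. At an adjusted p under 0.05 by edgeR, 0 of 10 were called, beside 0% of all 16352 genes tested. At an unadjusted p under 0.05 there were 2 of 10, Hoxa9 and Mecom, beside 1.97% of all genes (322), and DESeq2 gave the same number, 2, with none past its adjusted threshold. Estimates were above 0 for 6 of 10 genes, beside 51.7% of all genes, and the median log2 fold change was 0.07, beside 0.0075 for all genes. That median was 0.0034 without KO1, 0.022 without WT4 and 0.036 without KO2. Without KO4, 0 of 10 were called and 5 of 10 estimates were above 0. In no gene of the set were the CPM values of the 2 groups apart without overlap, which was the case for 1.28% of all genes. Each adjusted p below is 0.999 unless another is given.

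**Figure D2:**
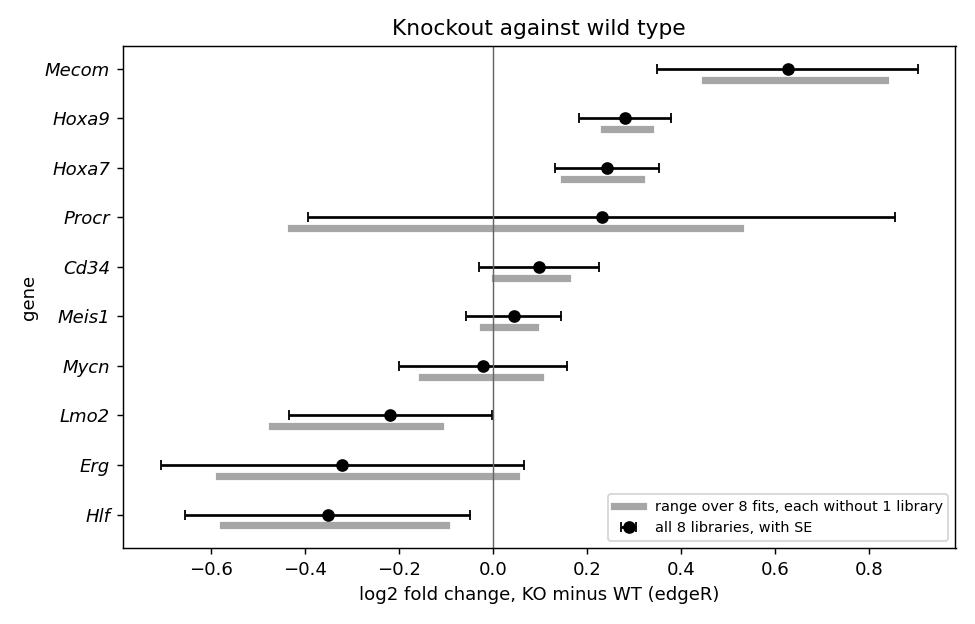
Log2 fold change of knockout minus wild type for each gene from edgeR (point, with SE), and the range over 8 fits that each left out 1 library (grey bar). Mecom, Hoxa9 and Hoxa7 have the largest estimates above 0 relative to their SE, and the grey bars of Meis1, Mycn, Procr and Erg cross 0.

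The promoters of Hoxa9, Hoxa7 and Mecom are shown here because these are the 3 genes with the smallest p. Each line gives the 250 bases before an annotated start, 5′ to 3′ on the gene's strand, from RefSeq on GRCm38.p6, with motif matches in capitals. All 4 windows are on the minus strand.
Hoxa9 (chr6:52227371-52227620): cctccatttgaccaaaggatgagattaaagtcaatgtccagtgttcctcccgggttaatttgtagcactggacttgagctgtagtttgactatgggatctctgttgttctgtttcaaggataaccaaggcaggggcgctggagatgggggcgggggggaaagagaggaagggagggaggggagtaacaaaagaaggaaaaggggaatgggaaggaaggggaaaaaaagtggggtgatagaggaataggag
Hoxa7 (chr6:52218574-52218823): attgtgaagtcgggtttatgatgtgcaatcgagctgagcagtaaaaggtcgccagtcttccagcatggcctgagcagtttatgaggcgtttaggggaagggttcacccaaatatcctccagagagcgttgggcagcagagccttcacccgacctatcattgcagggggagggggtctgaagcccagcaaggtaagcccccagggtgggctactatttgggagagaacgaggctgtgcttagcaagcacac
Mecom, upstream start (chr3:30509760-30510009): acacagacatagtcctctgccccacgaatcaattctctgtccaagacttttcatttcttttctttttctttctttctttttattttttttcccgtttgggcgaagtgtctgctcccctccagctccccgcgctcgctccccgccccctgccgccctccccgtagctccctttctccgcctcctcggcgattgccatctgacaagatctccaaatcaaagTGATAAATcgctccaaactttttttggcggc
Mecom, downstream start (chr3:30013205-30013454): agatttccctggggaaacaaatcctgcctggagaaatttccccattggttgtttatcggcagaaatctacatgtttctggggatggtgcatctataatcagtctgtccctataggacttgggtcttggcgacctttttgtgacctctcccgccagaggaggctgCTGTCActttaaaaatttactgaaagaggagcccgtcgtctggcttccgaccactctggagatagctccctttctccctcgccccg

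Motifs of factors in the set and of their partners were searched on both strands: TGACAG for MEIS, TGATNNAT for HOX with PBX, CCGGAA for ETS factors such as ERG, CACGTG for MYC proteins, TTANGTAA for PAR bZIP factors such as HLF, and AGATAA for GATA factors. Neither Hoxa window held a match. The upstream Mecom window held a HOX with PBX match at position -31 from the start, and the downstream window a MEIS match at position -86. Windows of this length hold these motifs in 7.68% and 15.9% of 32851 promoters. Among the 9 genes with a promoter entry, Meis1 and Hlf had an ETS match (12% of all promoters), Erg had MEIS and GATA matches at 1 of its 3 starts, and Cd34, Procr and Mycn had none. GC content ran from 36.0% to 67.2% over the 12 windows, with a median of 50.6% beside 52.4% for all promoters. No match overlapped another, and a match describes letters, not binding.

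Hoxa9 had the smallest p of the set. It encodes a homeodomain factor that sustains the self-renewal and lymphoid output of early progenitors. The gene (ENSMUSG00000038227.16, chromosome 6, 52200080 to 52208069, minus strand, coordinates of the count files, whose header names GRCm39) was at 71.1, 66.0, 68.3 and 78.6 CPM in WT1 to WT4 and at 76.8, 92.1, 93.8 and 82.3 CPM in KO1 to KO4. KO2, KO3 and KO4 lay above every wild-type library, and KO1 lay between WT1 and WT4. This gave a log2 fold change of 0.28 ± 0.10 (SE), a fold of 1.21, with an unadjusted p of 0.0156 that ranked 62 of 16352 and an adjusted p of 0.999. On the TPM scale the groups did not overlap: wild type ran from 57.2 to 62.9 TPM and knockout from 66.4 to 74.4 TPM, a separation shown by 1.49% of all genes. Without KO4 the log2 fold change was 0.30. The estimate lay between 0.24 and 0.35 over 18 alternative fits, with unadjusted p from 0.00721 to 0.0536.

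Hoxa7, a homeodomain factor gene, is the neighbour of Hoxa9 in the cluster. Its annotated end lies 1246 bases from the start coordinate of Hoxa9. It was at 45.6, 49.2, 44.6 and 47.1 CPM in WT1 to WT4 and at 52.9, 65.3, 55.8 and 46.9 CPM in KO1 to KO4. KO1, KO2 and KO3 lay above all wild-type libraries, and KO4 lay among them. Hoxa7 had a log2 fold change of 0.24 ± 0.11 (SE, unadjusted p 0.0507), 0.31 without KO4 (unadjusted p 0.0151) and 0.16 with RSEM expected counts (unadjusted p 0.177), and in CPM wild-type libraries differed among themselves by only 1.10-fold. On the TPM scale wild type ran from 48.9 to 58.4 TPM and knockout from 50.5 to 66.8 TPM, with 1 knockout library above all of wild type. Of its exon bases 20.4% are shared with the antisense gene Hoxaas3, where reads of the genes cannot be told apart without strand and featureCounts by default assigns a read that overlaps both to neither. Hoxaas3 itself was at 1.74 to 3.16 CPM in wild type and 1.91 to 3.78 CPM in knockout. KO2, the highest library for Hoxa7, was also the only one with more than 4 counts of the collagen gene Col1a1 (646 counts, 19.9 CPM). The part of such cells in the Hoxa7 value was not tested, and without KO2 the log2 fold change was 0.15.

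The rest of the HoxA cluster was at lower levels or under the filter. Of 9 other HoxA genes only 3 passed the filter, and 0 passed the test. Hoxa10, the neighbour of Hoxa9, had the highest wild-type level of them at 4.02 ± 0.80 TPM, with 4.05 ± 1.08 TPM in knockout (log2 fold change 0.29 ± 0.24). Hoxa3 was at 3.53 and 2.85 TPM and Hoxa5 at 1.40 and 1.61 TPM in wild type and knockout. Hoxa11 and Hoxa13 had no counts in any library. The levels of Hoxa7 and Hoxa9 given above were more than 10 times that of any of these.

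Meis1 encodes the TALE homeodomain factor that binds DNA together with HOXA9 and PBX proteins. It was at 81.2, 102.0, 95.3 and 89.7 CPM in WT1 to WT4 and at 85.4, 89.9, 98.8 and 105.4 CPM in KO1 to KO4. The groups overlapped over nearly their whole range, and the log2 fold change was 0.04 ± 0.10 (SE, unadjusted p 0.674). Meis1 shares 18.3% of its exon bases with Gm16140 and Gm37818. There too featureCounts by default assigns a read that also overlaps another gene to neither. Of 8 HOX cofactor genes 6 passed the filter and 0 the test, with 5 estimates above 0. Pknox1, a TALE factor with the highest wild-type mean CPM of the list, was at 85.2 to 104.4 CPM in wild type and 91.5 to 101.7 CPM in knockout. Meis2 had no counts.

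Mecom encodes the zinc finger factor EVI1, which long-term stem cells need. From 77 to 295 counts per library it gave 3.22, 2.34, 2.36 and 4.21 CPM in WT1 to WT4 and 6.25, 4.20, 4.92 and 3.42 CPM in KO1 to KO4. KO1 and KO3 lay above all wild-type libraries, whereas KO2 and KO4 lay below WT4. Wild type averaged 3.03 ± 0.89 CPM, and the log2 fold change was 0.63 ± 0.28 (SE, unadjusted p 0.0455), the largest of the set. Without KO4 it was 0.75, without KO1 0.45, and with WT4 and KO4 both left out 0.96. Over 18 alternative fits the unadjusted p ran from 0.00535 to 0.145, the highest without KO1. On the TPM scale Mecom ran from 0.85 to 2.20 TPM in wild type and from 1.61 to 2.47 TPM in knockout. There 1 knockout library lay above all of wild type. Its relative Prdm16 was at 3.54 to 7.59 CPM in wild type and 4.09 to 6.61 CPM in knockout, with a log2 fold change of 0.24 ± 0.28.

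Procr encodes the endothelial protein C receptor (EPCR), a surface marker of stem cells, and was close to the limit of counting. It gave 0.81, 0.39, 0.61 and 1.03 CPM in WT1 to WT4 and 1.78, 0.25, 0.25 and 1.04 CPM in KO1 to KO4, from 8 to 72 counts per library. Knockout libraries thus fell on both sides of all wild-type libraries, 2 above and 2 below. The estimate was 0.23 ± 0.62 (log2 fold change, SE), -0.43 without KO1 and 0.10 without KO4. KO1 and KO4 had 64 and 69 counts and KO2 and KO3 8 each. Kdr, an endothelial receptor gene picked after its values were seen, was likewise highest in KO1 (21.1 CPM). It was lowest in KO2 (0.86 CPM). Other endothelial markers went the other way, such as Egfl7 and Emcn, which were highest in KO2 at 197.7 and 4.63 CPM. In wild type Egfl7 lay above 94.6% of tested genes, whereas Tie1 and Sox18 did not pass the filter. Which cells the Egfl7 level came from was not tested. The 16 endothelial and stromal markers summed to 556.4 to 620.3 CPM in wild type and 580.6 to 717.7 CPM in knockout, highest in KO2. Most of this came from Pecam1, which blood cells also express. Of the 16 markers 9 passed the filter and Col3a1 had no counts, and their part in the Procr values was not tested.

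Hlf, a PAR bZIP factor of stem cell quiescence, was at 8.90, 8.52, 14.9 and 7.61 CPM in WT1 to WT4. In KO1 to KO4 it was at 11.04, 4.32, 6.76 and 9.08 CPM. WT3 was the highest library and KO2 the lowest, and KO2 and KO3 lay below all of wild type. Its log2 fold change was -0.35 ± 0.30 (SE, unadjusted p 0.272), and it ranged from -0.69 to -0.10 over the alternatives. Related bZIP genes showed no call. Nfil3, a repressor that binds the same kind of site as HLF, was at 16.3 to 20.9 CPM in wild type and 19.7 to 27.6 CPM in knockout (log2 fold change 0.40 ± 0.14, unadjusted p 0.0166). Tef and Dbp had log2 fold changes of 0.00 and 0.18.

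Cd34 differed between libraries of one group by up to 1.41-fold in wild type and 1.33-fold in knockout. It was at 309.3, 354.2, 328.0 and 251.9 CPM in WT1 to WT4 and at 332.1, 395.7, 297.9 and 305.0 CPM in KO1 to KO4. WT4 was the lowest library and KO2 the highest, with the rest between them. The log2 fold change was 0.10 ± 0.13 (SE, unadjusted p 0.459), 0.0038 without KO2 and 0.011 without WT4. The further surface and other markers of stem cells and multipotent progenitors gave 12 estimates above 0 and 6 below among 18 tested. Their median log2 fold change was 0.11, and 0 passed. Cd48 had the smallest p of them (0.0723) at 209.0 to 247.7 CPM in wild type and 245.9 to 298.7 CPM in knockout.

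After Procr, Erg varied most of the set between libraries of one group. ERG is an ETS factor that stem cells require and that is also active in endothelium and early lymphoid cells. It was at 19.6, 43.0, 29.2 and 10.3 CPM in WT1 to WT4, a 4.18-fold range, and at 24.7, 28.2, 15.9 and 13.1 CPM in KO1 to KO4. All knockout libraries lay inside the wild-type range. Erg had a log2 fold change of -0.32 ± 0.39 (SE, unadjusted p 0.425), 0.05 without WT2 and -0.15 without KO4. WT2, WT3 and KO2, the libraries without detected Xist, were the 3 highest for Erg, and with Xist as covariate the estimate was 0.045. The early lymphoid genes Rag1, Rag2 and Dntt were also highest in those 3 libraries and, like Erg, lowest in WT4. Others of that list differed, such as Ly6d, which was highest in KO2, KO3 and WT4. The cause of the spread in Erg was not tested. The within-group SD of Erg on the log2 scale, 0.72, exceeded that of 88.7% of tested genes, against 13.1% for Hoxa9, 17.5% for Meis1 and 20.5% for Hoxa7.

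Lmo2 encodes the bridging subunit that joins TAL1 or LYL1 to GATA factors and LDB1 in stem and erythroid cells. It was at 25.1, 22.3, 19.8 and 16.1 CPM in WT1 to WT4 and at 26.3, 16.5, 14.9 and 13.9 CPM in KO1 to KO4. KO1 was the highest of all libraries, and KO3 and KO4 were below all of wild type. For Lmo2 the estimate was -0.22 ± 0.22 (log2 fold change, SE, unadjusted p 0.337), -0.47 without KO1 (unadjusted p 0.0233) and -0.11 without KO4. WT1 and KO1, highest for Lmo2 in their groups, were also those with the highest erythroid marker sums given above, and WT4 had the lowest of both in wild type. In knockout KO4 was lowest for Lmo2 and KO3 for the erythroid sum. These sums leave out Tfrc, which was lowest in WT1 (395.6 CPM) and highest in WT4 (629.0 CPM). With Tfrc the sum was again highest in WT1 and KO1 within their groups, but lowest in WT3 (509.2 CPM) and KO2 (595.7 CPM). The part of erythroid cells in the Lmo2 level was not tested. Its partner Lyl1 had the highest wild-type mean CPM of 23 listed stem cell factors and partners, at 189.2 to 216.1 CPM in wild type and 163.2 to 254.0 CPM in knockout. Of those 23 genes 21 passed the filter and 0 the test, with 7 estimates above 0 and 14 below. Msi2, an RNA-binding protein of stem cells, had the smallest p (0.0784) at 45.1 to 106.8 CPM in wild type and 43.0 to 66.6 CPM in knockout. Etv6, an ETS repressor named here after its values were seen, was the gene of this list whose CPM values did not overlap between groups, at 54.0 to 78.0 CPM in wild type and 79.0 to 89.4 CPM in knockout (log2 fold change 0.21 ± 0.12), a separation shown by 1.28% of all genes. On the TPM scale all its knockout libraries, at 18.7 to 22.1 TPM, lay inside the wild-type range of 13.3 to 25.5 TPM.

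Mycn, the MYC family member used by stem and early lymphoid cells, was at 44.6, 29.2, 42.7 and 25.4 CPM in WT1 to WT4. In KO1 to KO4 it was at 38.5, 35.3, 31.2 and 34.7 CPM, all within the wild-type range. Mycn had a log2 fold change of -0.02 ± 0.18 (SE, unadjusted p 0.912), and knockout libraries spread less (SD 2.99 CPM) than wild-type libraries (SD 9.59 CPM), a difference that was not tested. Myc, its paralogue, had the highest wild-type mean CPM of 10 other MYC network genes, at 258.2 to 431.0 CPM in wild type and 293.6 to 354.5 CPM in knockout. Mnt, a repressor that competes with MYC for MAX, had the smallest p of them (0.0199) at 12.5 to 27.7 CPM in wild type and 10.2 to 13.1 CPM in knockout (log2 fold change -0.68 ± 0.25). Of these 10 genes 3 had estimates above 0, and 0 passed the test.

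**Figure D3:**
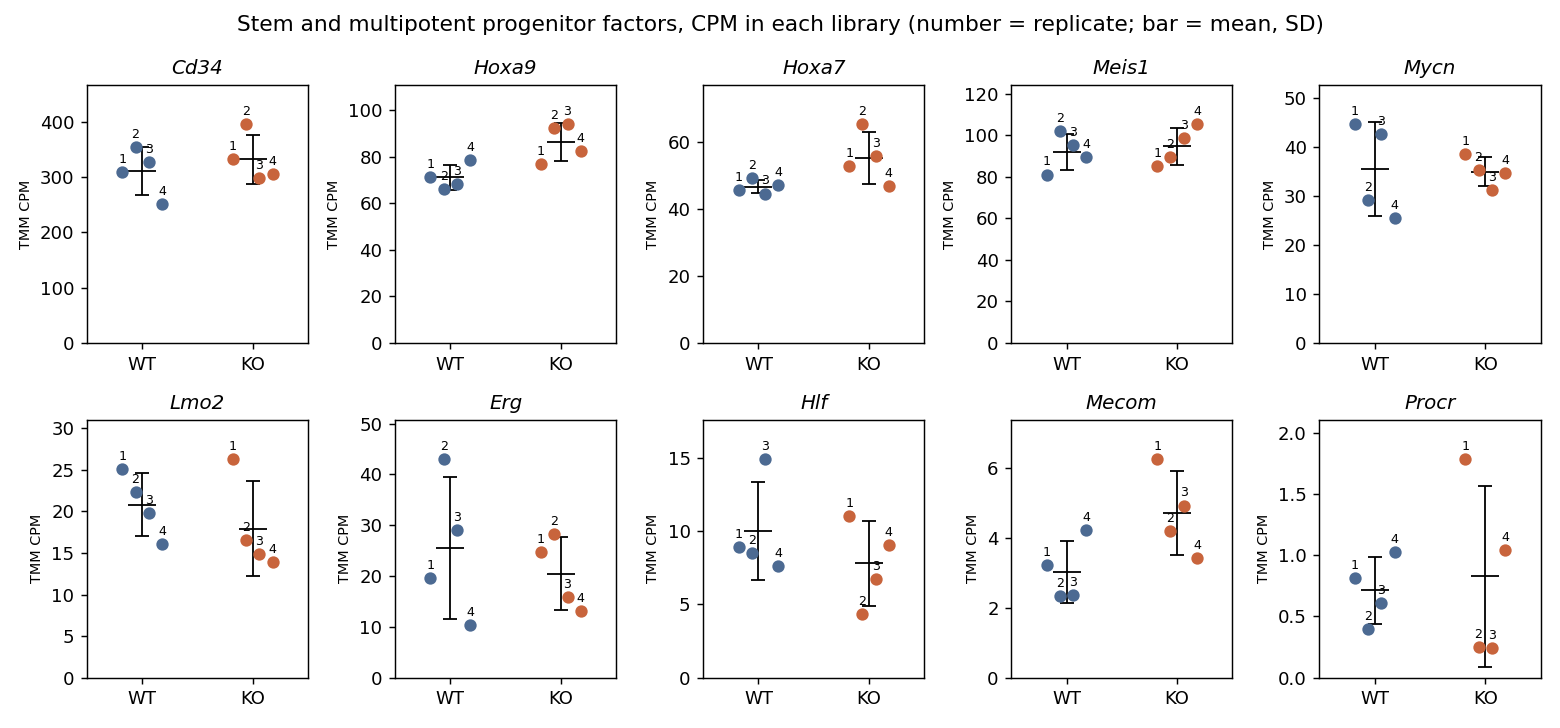
TMM CPM of each gene in the 4 wild-type (blue) and 4 knockout (orange) libraries, numbered by replicate, with the group mean and SD as a black bar; each axis starts at 0. Hoxa9 and Hoxa7 each have 3 knockout libraries above all wild-type libraries, and Mecom has 2.

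Set side by side over libraries, the 10 genes did not share 1 pattern. Relative to the mean of all libraries, WT4 was lowest for Cd34 (-0.34), Mycn (-0.45) and Erg (-1.02) on the log2 scale, but above the mean for Mecom (0.20) and Procr (0.72). KO2 was the highest library for Cd34 (0.31) and Hoxa7 (0.37) and the lowest for Hlf (-0.96). KO1 was the highest for Mecom (0.77), Lmo2 (0.48) and Procr (1.52). The genes most like each one over the 8 libraries, by the root mean square difference of centred log2 CPM were picked from 13079 named genes. Tube1 and Snx10 came nearest to Cd34 (0.044 and 0.045), Rcl1 and Arap2 to Meis1 (0.030 and 0.033), and Gen1 and Prrg2 to Hoxa9 (0.048 and 0.064). Fam110a and Miip came nearest to Hoxa7, Cep112 and Khsrp to Mycn, Adipor2 and Cdkl3 to Lmo2, and Acsl3 and Snord55 to Erg, at differences of 0.066 to 0.205. For Mecom, Hlf and Procr the nearest genes were Mir1291 and Slc7a7, Dlx1as and Frmd5, and Ighv1-59 and Cyp2u1, at 0.161 to 0.358. None of the genes so named is in the lists used here. A small difference is easier to reach for a member that itself varies little. The members' own root mean square spread was 0.121 for Meis1, 0.179 for Cd34 and 0.868 for Procr. Some of the nearest genes were close to the limit of counting, such as Mir1291 at 0.21 to 0.45 CPM.

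**Figure D4:**
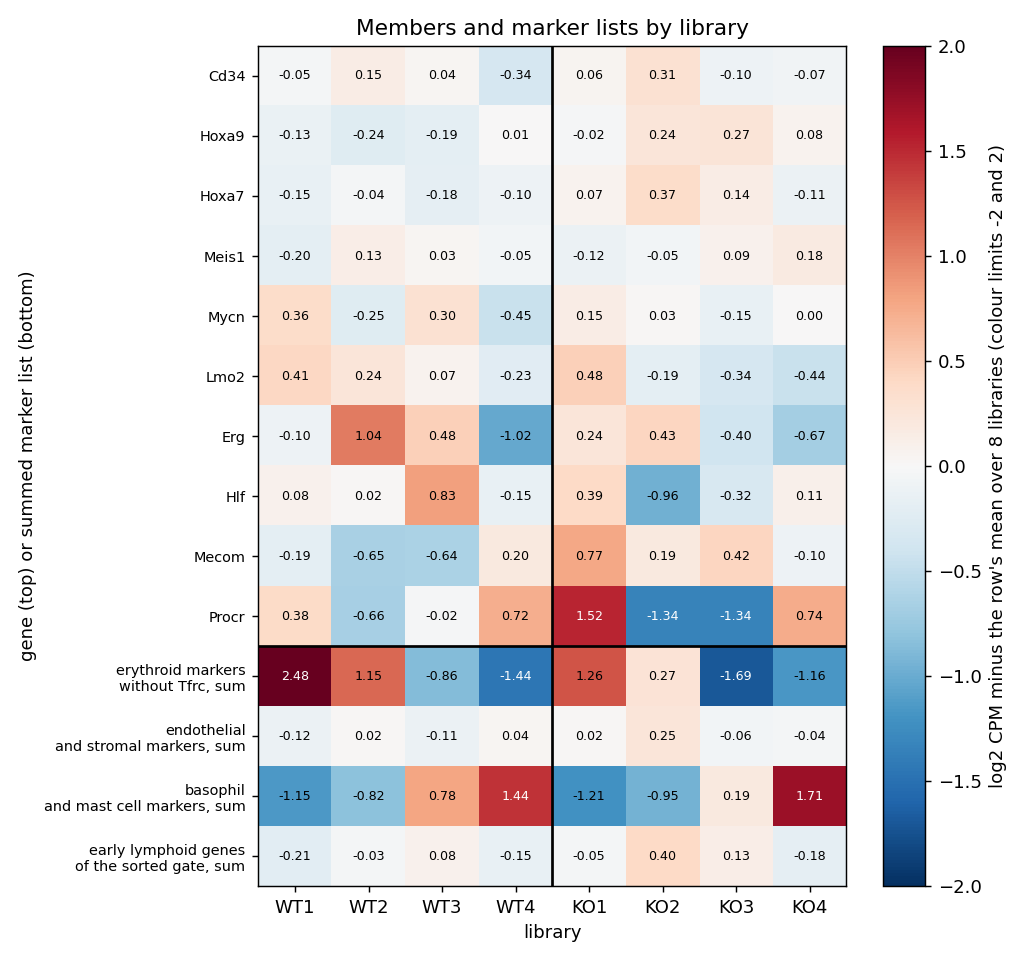
Log2 CPM of each gene (top) and of summed marker lists (bottom) in the 8 libraries, minus the mean of the row; red is above and blue below that mean. Erg runs from -1.02 in WT4 to 1.04 in WT2, Lmo2 is highest in WT1 and KO1 as is the erythroid sum, and no single library is high or low for all 10 genes.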

How the data were processed

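RNA was purified from the sorted cells with a column kit and 200 ng went into a low-input library kit, per the labels' protocols. The authors deposited whole-number read counts per gene, made per the file headers with featureCounts 1.6.4 on alignments with duplicates marked and with no strand or multi-mapping option set, and RSEM expected counts and TPM per gene (RSEM 1.3.1, STAR 2.6.0a and Picard 2.19 per the submitters' processing notes). The notes name mm10 and the count files' header GRCm39. A library's count total was 3.67 to 4.00 times its total of expected counts, so that 1 count is not 1 fragment; the reason was not tested.

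Symbols came from the reference name table (97.1% of identifiers matched). The 8 libraries entered 1 edgeR model (version 4.0.16, R 4.3.3) with genotype as its only term (filterByExpr, TMM, quasi-likelihood test, Benjamini-Hochberg over all 16352 genes, threshold 0.05); SE is the log2 fold change divided by the square root of F. Alternatives tried were DESeq2 1.42.0, scaling by RLE or by library size only, no filter or a mean CPM of at least 1, rounded RSEM expected counts in place of the counts, the replicate block, each library left out, WT4 and KO4 left out together, and an adjusted p of 0.1; Xist as covariate and the 5 shallower libraries were added after seeing the data. Fits were tested on simulated data with log2 changes of 1 and 2 in size. These are larger than any estimate of the set, so recovery of smaller changes was not tested. Genes named are the 10 members, Trerf1, the gene of smallest p and of highest wild-type mean CPM in each list, and the 2 genes most like each member; others, such as Slamf1, Flt3, Prdm16, Hoxb5, Kdr, Col1a1 and Etv6, were named after their values were seen, and some genes that the rule names are not reported here. Members and lists were chosen with earlier results of these data known. Promoters are RefSeq sequences, with no entry for Lmo2.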

Additional observations from a re-analysis of the deposited data

Results flagged for a closer look

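Trerf1 in the library labelled KO4, at 22.1 CPM, stood far above the other knockout libraries, at 12.1 to 13.4 CPM: its gap to the nearest of them was 0.876 of the range of the 4, over the critical value of Dixon's test for 4 samples. The 10 genes and Trerf1 gave 22 groups of 4 to look at, of which chance flags about 1 in 20.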

How the results depend on the processing

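The count of genes of the set past the threshold was 0 in each of 19 alternatives run, an adjusted p of 0.1 included. Estimates of Cd34, Mecom, Hoxa9 and Hoxa7 stayed above 0 and those of Hlf and Lmo2 below 0 in every fit that tested them. Directions turned for 4 genes, and the cause was not tested. With the replicate block the log2 fold change was 0.017 for Mycn and -0.12 for Procr, with 634 genes at an unadjusted p under 0.05 in the whole table in place of 322 and 3 of the set, Hoxa7 (p 0.045) now among them, in place of 2. The labels do not say what a shared number marks, and same-numbered libraries correlated in their deviations at 0.362, 0.309, -0.0315 and 0.119, so the numbers were not taken to pair the libraries. WT1 and WT2 correlated best with their own numbers, WT3 with KO4 and WT4 with KO3. The summed basophil and mast cell markers, however, rose with the number in both groups. They ran from 50.9 CPM in WT1 to 307.9 CPM in WT4 and from 48.9 CPM in KO1 to 370.7 CPM in KO4. With each library left out in turn, estimates ran from -0.020 to 0.089 for Meis1 (turned without WT1 or KO4), from -0.15 to 0.099 for Mycn (without WT1, WT3 or KO3), from -0.43 to 0.53 for Procr (without KO1) and from -0.58 to 0.05 for Erg (without WT2). With WT4 and KO4 left out together Meis1 was at -0.024, Trerf1 at -1.20 and past the threshold, and 12 genes were called in the whole table in place of 0. With Xist as covariate Procr was at -0.18 and Erg at 0.045. Procr was under the filter at a mean CPM of at least 1 and with RSEM expected counts. At an unadjusted p under 0.05, leaving out 1 library gave 168 (without WT2) to 1016 (without WT4) genes in the whole table and 0 (without KO3) to 3 (without KO4) of the set, DESeq2 gave 565 of 29987 (1.88%), no filter 836 of 30028 (2.78%), and WT4 and KO4 left out together 1427 of 16300 (8.75%), beside 1.97% with all libraries. Procr and Mecom had the fewest counts of the set, at 8 to 72 and 77 to 295 per library.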
